A study of Rattus norvegicus with 12 samples.

Results

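Whole retinas of the Royal College of Surgeons (RCS) rat at p60 (day 60) were compared between an athymic and an immunocompetent line, using all 6 p60 libraries of the 12 in the series. The immunocompetent line was labelled RCS-p+, WT and male (libraries 19, 20 and 21), and the athymic line was labelled RCS-p+/Foxn1mu and female (libraries 22, 23 and 24). Both lines therefore carry the RCS background, and neither is a rat with a healthy retina. The other 6 libraries hold 3 of each line at p21 (day 21, libraries 1 to 6) and were used where the p60 values are set beside an earlier age. Genes on the X and Y chromosomes (1494 and 48 of 32883) were left out, because labelled sex changes with line, which left 31341 genes. For the genes kept, labelled sex and line cannot be told apart, and no sex term was fitted. A line difference below is thus a difference between groups that also differ in labelled sex.

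RCS rats lack a working Mertk, the receptor with which the retinal pigment epithelium engulfs shed photoreceptor outer segments. Debris builds up beneath the retina, photoreceptors die after birth, and Müller glia and microglia react to the loss. Foxn1 is the transcription factor that thymic epithelium needs, so that its loss leaves an animal with few mature T cells, whereas microglia, complement and other innate defences do not depend on a thymus. The comparison addresses whether the degenerated retina of the T-cell-deficient line carries other transcript levels than that of the immunocompetent line. In whole tissue, fewer cells of a type and less RNA per cell cannot be told apart.

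The deposited tables list Ensembl identifiers without gene names, and the available gene table holds none of these identifiers. Foxn1, Mertk, T-cell genes, immune and glial genes, and the markers that would check the tissue were therefore not analysed here by name. Genes are given by position in the Rnor_6.0 build. In their place, the bounds on the line difference are given below as shares of all genes at an expression level. A share over all genes does not bound a subset of them, and the share among immune or glial genes may be another. The single region addressed by position was chromosome 20 from 1 to 6 Mb, the part of the rat genome that holds the major histocompatibility complex (MHC).

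Total counts of the p60 libraries ranged from 14163643 to 15825858, and the mitochondrial share from 4.81 to 5.27%. Counts on the Y chromosome were 251 to 283 CPM (counts scaled to the library total) in the libraries labelled male, 269 in library 22, and 23.2 and 16.1 in libraries 23 and 24, so that library 22 went against its sex label. At p21, libraries 4 and 5, also labelled female, had 328 and 316 CPM and likewise went against their label. Library 6 had 8.79, and the p21 libraries labelled male had 229 to 323. At p60, libraries 19 and 24, 1 of each line, stood apart from the others. Of the genes tested, 80 were at least 4-fold higher in library 19, and 52 in library 24, than in each of libraries 20 to 23, and 50 genes were in both sets (62.5% of the first and 96.2% of the second). These 82 genes summed to 10803 normalized CPM in library 19 and 5572 in library 24, against 497 to 619 in the other 4. They were chosen on these values, with folds between libraries taken on the log2(normalized CPM + 0.5) scale. A high level in 1 library widens the spread within its line, so the choice made a call between the lines unlikely. By edgeR's quasi-likelihood test, 0 of the 82 were called and 0 had an unadjusted p-value under 0.05 (9.35% of all genes tested did). DESeq2 also called 0. At p21, which did not enter the choice, 63 of them had an unadjusted p-value under 0.05 (13% of all genes tested did) and 0 were called by edgeR. The count of 63 depended on single libraries, from 24 without library 4 to 76 without library 5, and was 20 with a robust prior. Their direction at p21 is not given here. Nothing in the labels says that the libraries are separate animals, so p-values measure the spread between these libraries.

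Few genes were called between the lines at p60 by the main test. Of 15020 genes tested, 3 passed an adjusted p-value of 0.05 (0.02%), where 2 were higher and 1 was lower in the athymic retinas (quasi-likelihood test of edgeR, adjusted by Benjamini-Hochberg, n = 3 libraries per line). Before adjustment, 1405 genes had a p-value under 0.05, of which 820 were higher (5.46% of those tested) and 585 were lower (3.89%). Scaling to total counts alone gave 4, of which 2 were higher and 2 lower. The count of 3 depended on single libraries and on the test. It was 0 without library 20, without library 21 or without library 23, 4 without library 19 or without library 22, and 55 without library 24, where 52 were higher. DESeq2 called 98 genes, 82 of them higher. Without both libraries that stood apart, 19 and 24, edgeR called 183 genes, 158 higher and 25 lower.

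ENSRNOG00000012067 (chr1:229003961-229019527) was the gene with the smallest p-value and was almost absent from the athymic retinas. It had 157, 132 and 134 counts in libraries 19, 20 and 21, and 18, 8 and 15 counts in libraries 22, 23 and 24. The groups were far apart, where the highest athymic library held 18 counts and the lowest immunocompetent library 132. In normalized CPM, its level was 9.28 ± 1.18 in the immunocompetent and 0.856 ± 0.314 in the athymic line (SD, n = 3 each), a log2 fold change of -3.44 (standard error 0.277, 95% interval -4.08 to -2.80, adjusted p = 0.0240 by edgeR). This corresponds to a level 10.8-fold lower in the athymic line, with an interval of 6.96- to 16.9-fold. Library 22, whose Y counts were those of a library labelled male, was as low as the other athymic libraries, at 1.10 normalized CPM against 0.501 and 0.972. Its exons share no position with another annotated gene. The adjusted p was 0.188 without library 20, 0.125 without library 21 and 0.0592 without library 23, and over those fits the log2 fold change lay between -3.50 and -3.17. At least 10 counts in every library, an alternative filter, removed the gene.

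At p21 the same gene was present in both lines. It had 85, 89 and 61 counts in immunocompetent libraries 1, 2 and 3, and 112, 90 and 127 counts in athymic libraries 4, 5 and 6. All 6 young libraries held more than any athymic library at p60, and the athymic line was at no lower level than the immunocompetent line. The athymic over immunocompetent log2 fold change was 0.40 at this age (95% interval -0.01 to 0.81, adjusted p = 0.394 by edgeR). The difference between the ages was tested as an interaction of age and line over all 12 libraries, where this was the 1 gene called among 15508 (0.00645%), with a log2 estimate of -3.83 (standard error 0.331, adjusted p = 4.76e-04 by edgeR).

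The 2 genes that rose changed by less. The genes described one by one here were picked by their p-values at p60, so separate groups at p60 follow in large part from the choice. ENSRNOG00000019178 (chr1:170585167-170586603) had 15.3, 13.8 and 15.3 normalized CPM in the immunocompetent libraries and 26.4, 28.6 and 26.7 in the athymic libraries. The groups did not overlap, and the log2 fold change was 0.88 (95% interval 0.69 to 1.07, adjusted p = 0.0285 by edgeR). Its exons share positions with 1 other annotated gene, so reads from the pair cannot be assigned with certainty. ENSRNOG00000008277 (chr5:57254421-57267002) had 38.6, 39.6 and 36.6 normalized CPM in the immunocompetent libraries and 60.1, 62.0 and 61.3 in the athymic libraries. Here too the groups were separate, with a log2 fold change of 0.68 (95% interval 0.53 to 0.82, adjusted p = 0.0285 by edgeR). Neither gene was called without library 20, 21, 22 or 23, where the adjusted p of ENSRNOG00000019178 was 0.188, 0.125, 0.0865 and 0.330, with the same 4 values for ENSRNOG00000008277. ENSRNOG00000019178 also missed the threshold without library 19, at an adjusted p of 0.0514.

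A further gene lay just outside the threshold. ENSRNOG00000014090 (chr4:100465170-100474301) had 64.9, 61.5 and 57.4 normalized CPM in the immunocompetent libraries and 32.9, 32.0 and 37.8 in the athymic libraries, a log2 fold change of -0.84 (95% interval -1.05 to -0.63, adjusted p = 0.0515 by edgeR). The p60 groups were separate, whereas at p21 the athymic libraries spread from 37.7 to 73.7 normalized CPM around the immunocompetent range of 42.2 to 50.9. Its adjusted p was 0.0107 without library 24, and 0.0514, 0.396, 0.125, 0.111 and 0.405 without libraries 19, 20, 21, 22 and 23. For these last 3 genes, the change of the line difference between the ages was not called (interaction adjusted p from 0.167 to 0.270 by edgeR).

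**Figure D1:**
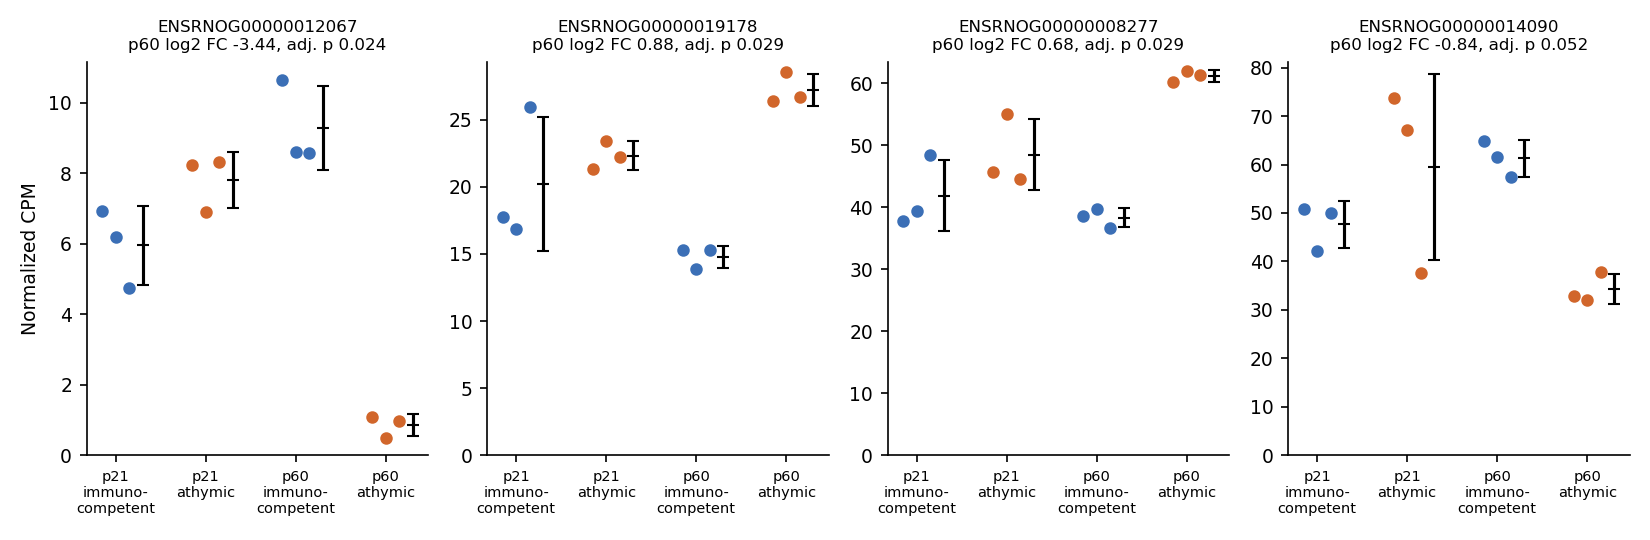
Normalized CPM (vertical axis, from 0) of the 3 called genes and the gene just outside the threshold, for each library of the 4 groups, where points are libraries and bars the mean and SD of 3. At p60 the athymic points lie apart from the immunocompetent points in every panel, which follows in large part from the choice of genes by p-value at p60. ENSRNOG00000012067 is at 0.501 to 1.10 normalized CPM in the athymic retinas.

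For most genes, a large difference between the lines was outside the 95% interval of the estimate. The median absolute log2 fold change over the 15020 genes was 0.0935, and the interval reached 0.235 to either side at the median. The whole interval was inside 2-fold in either direction for 13100 genes (87.2%), inside 1.5-fold for 10869 (72.4%) and inside 4-fold for 14712 (97.9%). These are intervals of single genes, without adjustment for their number. Leaving out libraries left between 11547 and 12857 genes inside 2-fold, the lowest with libraries 19, 20 and 21 against library 22 alone, and DESeq2 gave 12669.

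The bound depended on how abundant a transcript was. Among the 2351 genes with a mean of at least 100 normalized CPM, 99.4% were inside 2-fold and 98.3% inside 1.5-fold, and for 95% of them the farther end of the interval was at most 1.32-fold. Among the 8041 genes between 10 and 100 normalized CPM, 98.1% were inside 2-fold and 93.6% inside 1.5-fold. The bound loosened below 10 normalized CPM, where 71.3% of 3880 genes between 1 and 10 and 13.6% of 748 genes under 1 were inside 2-fold. For transcripts of rare cells such as infiltrating lymphocytes, which would lie at the low end, the interval thus often reached beyond 2-fold.

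**Figure D2:**
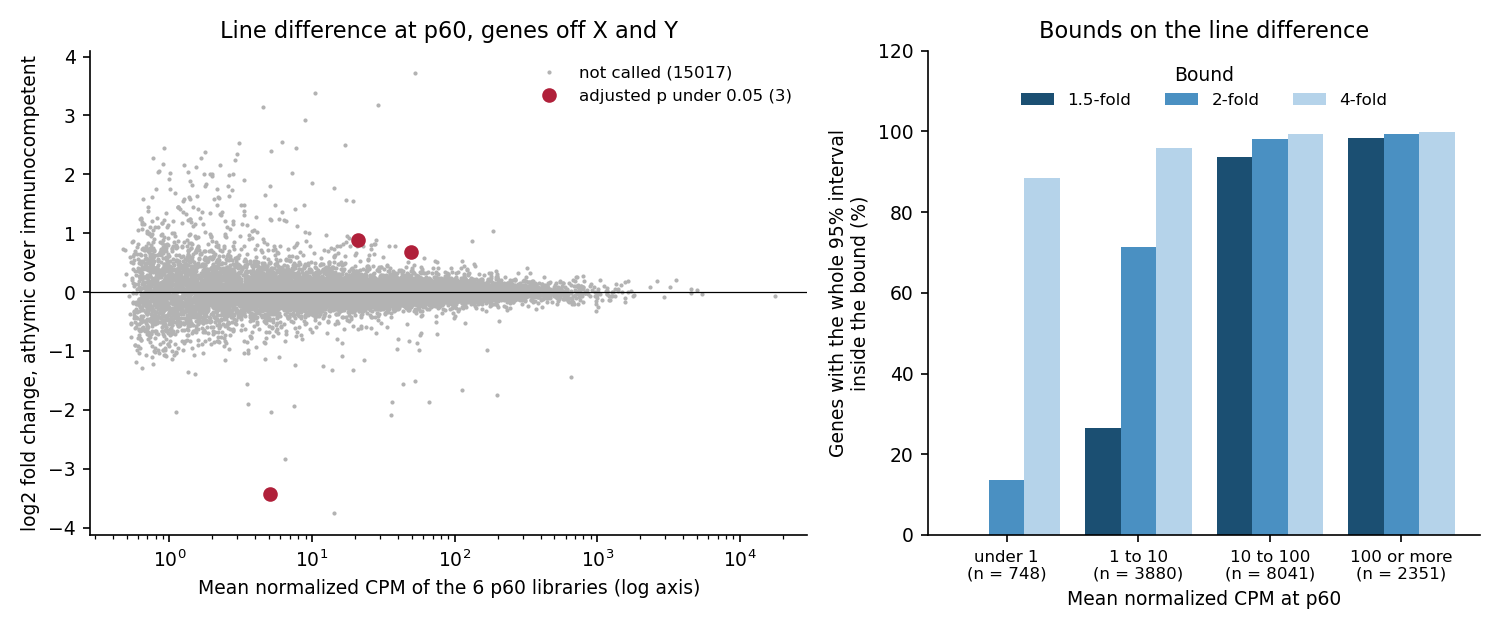
Left, log2 fold change of athymic over immunocompetent retinas against the mean normalized CPM of the 6 p60 libraries (log axis), 1 point per gene, with the 3 called genes enlarged. Right, percent of genes in 4 ranges of mean level whose whole 95% interval lies inside 1.5-, 2- or 4-fold, where the share inside 2-fold goes from 13.6% under 1 CPM to 99.4% at 100 CPM or more.

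Transcripts found in 1 line alone were few and scarce. Of the 31341 genes, 8744 had no count in any p60 library and 7577 more did not pass the filter on low counts, which asks for a minimum in about as many libraries as a line has. Their counts summed over the 6 libraries had a median of 6, and the highest count of such a gene in a single library was 337. A total of 45 genes had at least 1 count in each immunocompetent library and 0 in all athymic libraries, and 68 genes had the reverse. The most abundant of the 45 had 14 counts over its 3 libraries, and of the 68, 31 counts. A count of 0 allows up to 3 counts in a library, which corresponds to 0.192 CPM (counting error only). No tested gene was at 0 in all libraries of a line.

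On chromosome 20 from 1 to 6 Mb, the MHC, which encodes the class I and class II molecules that present peptides to T cells, lies among many genes of other function. Of the 345 genes of this window, 159 were tested at p60 and 0 were called, where 21 had an unadjusted p-value under 0.05 by edgeR (10 higher and 11 lower), 13.2% against 9.35% of all genes tested. DESeq2 called 4, against 98 of 15020 over all genes, and edgeR without libraries 19 and 24 also called 4, against 183 of 15147. The summed level of the window was 8238, 8660 and 8599 normalized CPM in libraries 19, 20 and 21, and 8409, 8042 and 8181 in libraries 22, 23 and 24. The sums overlapped between the lines. The median log2 fold change was -0.04 (over all genes tested, -0.003), and the interval was inside 2-fold for 128 of the 159 genes (80.5%) and inside 4-fold for 152. Among the 100 genes of the window with at least 10 normalized CPM, 95 were inside 2-fold and 85 inside 1.5-fold.

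The gene with the highest level in the window (chr20:5139882-5155293) had 617, 638 and 636 normalized CPM in the immunocompetent and 619, 594 and 635 in the athymic libraries. The lines overlapped, and the log2 fold change was -0.03 (95% interval -0.14 to 0.08). The gene at chr20:4806108-4818568 had 452, 532 and 528 normalized CPM against 522, 508 and 481, with a log2 fold change of -0.001 (95% interval -0.16 to 0.15), and it shares exonic positions with 1 other gene. Both were picked for their high levels, and for both the whole interval lay inside 1.5-fold.

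Some lower-level genes of the window had larger estimates, none of them called by edgeR over all 6 libraries. The gene with the smallest p-value there (chr20:4673658-4935887) had 18.0, 14.2 and 18.5 normalized CPM in the immunocompetent and 30.6, 24.7 and 31.7 in the athymic libraries, without overlap, with a log2 fold change of 0.78 (95% interval 0.46 to 1.10, adjusted p = 0.247 by edgeR). Its annotation spans much of the window and shares exonic positions with 4 genes, so its counts are uncertain. At p21 the direction was opposite, at 21.4, 26.6 and 17.0 normalized CPM in the immunocompetent against 3.30, 2.61 and 18.1 in the athymic libraries.

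The gene at chr20:2704148-2707120 had 1.22, 0.849 and 1.34 normalized CPM in the immunocompetent and 4.81, 5.39 and 1.75 in the athymic libraries at p60. Libraries 22 and 23 were high, and library 24 was near the immunocompetent level. The gene is among the 53 described below, which were chosen for high levels in libraries 22 and 23. A fit without library 24 is therefore no separate test of the line for it. The log2 fold change was 1.81 (95% interval 0.81 to 2.80, adjusted p = 0.349 by edgeR), and without library 24 it was 2.16 (adjusted p = 0.0220). At p21 it was again opposite, at 10.4, 10.9 and 8.78 normalized CPM against 0.587, 0.614 and 6.75, where library 6 was nearer to the immunocompetent libraries than to the other athymic ones. The gene at chr20:4066132-4070721 had 8.61, 12.9 and 8.83 normalized CPM against 21.0, 15.8 and 14.1 at p60. At p21 its high libraries were 2 and 3 of the immunocompetent line, at 17.7 and 13.0, whereas the other 4 held 0.459 to 2.35. For these genes the level thus varied between libraries of the same line as well as between the lines, and the line with the higher level changed with age. These genes were higher in the athymic line at p60. Of the 21 window genes with an unadjusted p-value under 0.05 by edgeR, 10 were higher and 11 lower. Among the lower, chr20:3791629-3796275 had 11.1, 8.36 and 9.92 normalized CPM against 8.22, 5.57 and 5.77. Its log2 fold change was -0.59 (95% interval -1.03 to -0.14, adjusted p = 0.440 by edgeR). DESeq2 called chr20:5351605-5421098 lower, at a log2 fold change of -0.52 (adjusted p = 0.0340). All were picked after their values were seen.

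**Figure D3:**
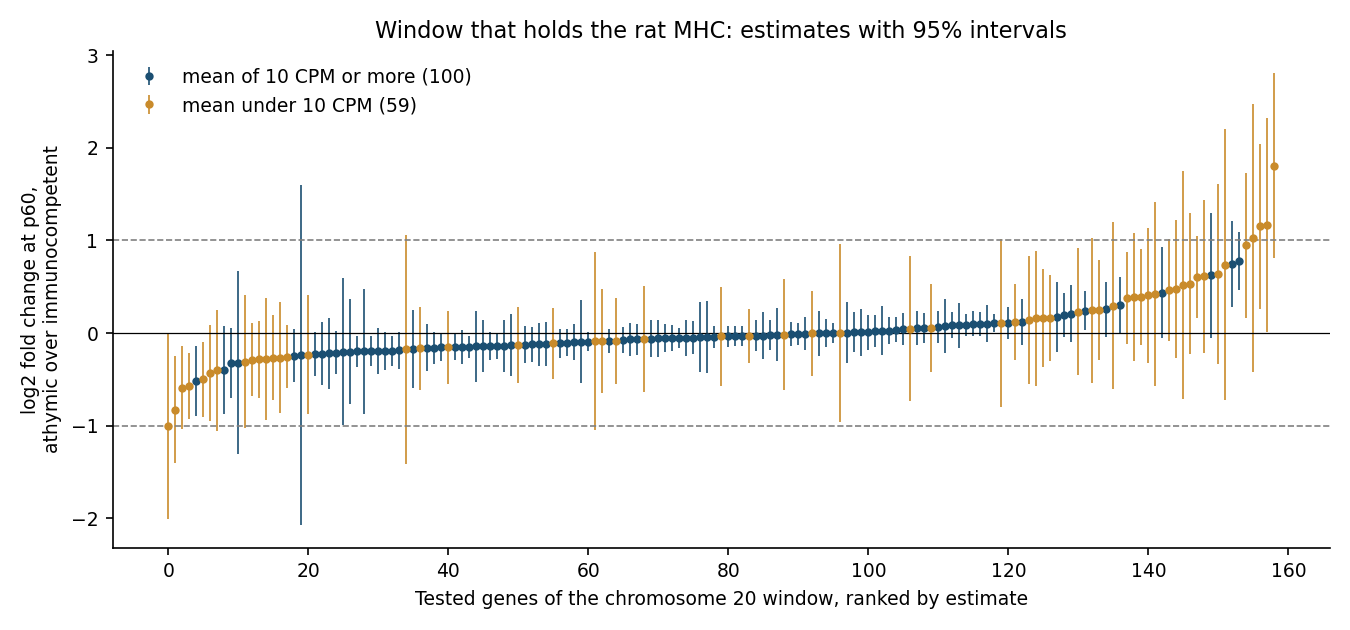
log2 fold change of athymic over immunocompetent retinas at p60 for the 159 tested genes of chromosome 20 from 1 to 6 Mb, ranked by estimate, with 95% intervals as bars and dashed lines at 2-fold. Most of the 100 genes with at least 10 CPM (dark) lie with their whole interval between the dashed lines, and the wide intervals are mostly of genes under 10 CPM (light).

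The change between p21 and p60 provided a scale for the size of the line differences. No rat with a healthy retina is in the series, so degeneration and other changes over these ages cannot be told apart. Over both lines, 120 genes were at least 4-fold higher (0.774% of 15508) and 214 at least 4-fold lower (1.38%) at p60 than at p21 at an adjusted p-value under 0.05 (edgeR, with line as a covariate). The ages were compared with the same p60 libraries, both lines with equal weight, and the genes were chosen after earlier results were known. All 120 of the higher genes and 161 of the lower genes were tested between the lines at p60.

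Genes that rose with age had a median line difference smaller than the spread between libraries. Their median log2 change with age was 2.54, whereas their median log2 fold change between the lines at p60 was -0.06, with 8 of 120 at an unadjusted p-value under 0.05 (6.67%, against 9.35% of all genes tested) and 0 called by edgeR or by DESeq2. Leaving out single libraries moved this median from -0.20 without library 20 to 0.03 without library 21, where the spread of the set's median between libraries of a line was 0.232. Their summed level was 4623, 3964 and 5985 normalized CPM in the immunocompetent and 4843, 3769 and 5030 in the athymic libraries, so the lines overlapped. For 118 of the 120, the 95% interval of the line difference ended short of the change with age. The set was chosen at 4-fold or more with age, so this count lies near the share inside 4-fold. That share was 98.3% in the set and 97.9% of all genes tested. The intervals were wide, with 68 of the 120 inside 2-fold (56.7%).

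Genes that fell with age were, at the median, slightly higher in the athymic retinas at p60. Their median log2 change with age was -2.33, and their median log2 fold change between the lines was 0.14, with 77.0% of the 161 above 0 against 49.0% of all genes tested. None was called by edgeR, DESeq2 called 5, all higher (98 of 15020 over all genes), and without adjustment 32 genes (19.9%) passed a p-value of 0.05, all of them higher, where 5.46% of all genes tested did so in that direction. Summed over all 214 genes, the level was 18012, 17982 and 16960 normalized CPM in libraries 19, 20 and 21, and 19290, 22007 and 18577 in libraries 22, 23 and 24. Every athymic sum lay above every immunocompetent sum, and library 23 was the highest. The median level of the 214 genes overlapped between the lines, at 6.07, 5.42 and 5.28 normalized CPM in libraries 19, 20 and 21, and 5.66, 6.04 and 5.67 in libraries 22, 23 and 24. Without library 23, the median was 0.06, and 14 genes passed an unadjusted p-value of 0.05 in the higher direction and 2 in the lower. The median moved by less than 0.0972, the spread of the set's median between libraries of a line. None of the 82 genes high in library 19 or 24 was in this set. At p21 more of the set went the other way. There, 10 of its genes had an unadjusted p-value under 0.05 by edgeR in the higher direction and 25 in the lower, against 997 and 909 of 14702 genes tested.

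**Figure D4:**
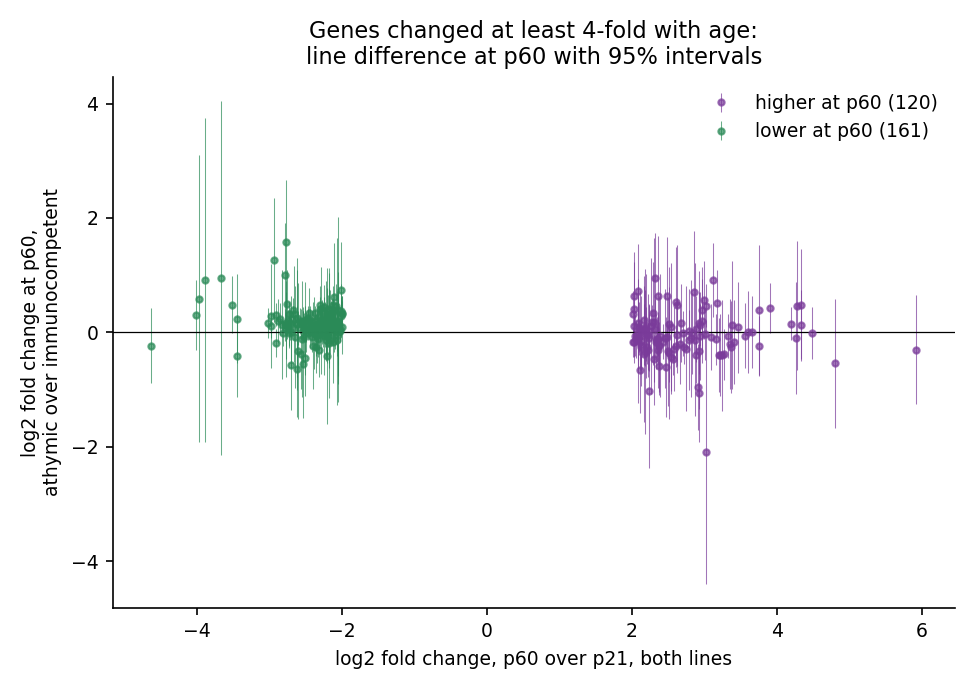
log2 fold change between the lines at p60 (vertical axis, with 95% intervals as bars) against the log2 change from p21 to p60 over both lines (horizontal axis), for the 120 genes at least 4-fold higher and the 161 tested genes at least 4-fold lower at p60. The median line difference was -0.06 for the higher genes and 0.14 for the lower genes.

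The largest estimates between the lines came mainly from genes that 2 of the 3 athymic libraries carried. On the log2(normalized CPM + 0.5) scale, libraries 22 and 23 were at least 2-fold above each of the other 4 p60 libraries for 53 genes, and below them to that degree for 0. Of the 27 genes estimated at least 4-fold higher in the athymic line, 19 were among the 53. The 53 genes summed to 681 and 609 normalized CPM in libraries 22 and 23, to 118 in library 24, and to 105, 99.4 and 101 in libraries 19, 20 and 21. Library 24 was thus near the immunocompetent level and far from its own line. The genes were chosen on these values, so their difference is a description. Over all 6 libraries edgeR called 0 of them, although 49 had an unadjusted p-value under 0.05 (9.35% of all genes tested did). DESeq2 called 13 of them, of 98 over all genes. Without library 24, 34 of the 55 calls were among the 53, and without libraries 19 and 24, 50 of the 183. The choice itself set libraries 22 and 23 against the others, so these counts are no separate test of the line.

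At p21, an age that did not enter the choice, the same genes were high in the immunocompetent line. They summed to 785 and 740 normalized CPM in libraries 2 and 3, to 132 in library 1, and to 136, 133 and 84.3 in athymic libraries 4, 5 and 6. For 44 of the 53 (83.0%), libraries 2 and 3 were at least 2-fold above each of the other 4 p21 libraries, as were 0.606% of all genes tested at p60. The high level was therefore in 2 of 3 libraries of the athymic line at p60 and in 2 of 3 libraries of the immunocompetent line at p21. The gene of the set with the largest estimate (chr15:52211544-52214616) showed this with 5.63, 5.62 and 10.8 normalized CPM in libraries 19, 20 and 21, and 149, 126 and 17.8 in libraries 22, 23 and 24. At p21 it had 172 and 159 in libraries 2 and 3, between 9.91 and 17.6 in libraries 1, 4 and 5, and 0.0656 in library 6.

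The set was spread over 19 chromosomes or scaffolds and held a larger share of short gene models than all genes tested. Some models were long, such as that at chr10:82745801-82762789, with 51 exonic blocks and 5825 bases. Of the 53 genes, 26 (49.1%) had a single exonic block, against 6.77% of all genes tested, and the median exonic length was 753 bases against 2308. Within these libraries the high level followed neither the line nor the age. Which library property it moved with was not tested, and the high p60 libraries 22 and 23 differed in their Y counts, at 269 and 23.2 CPM.

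**Figure D5:**
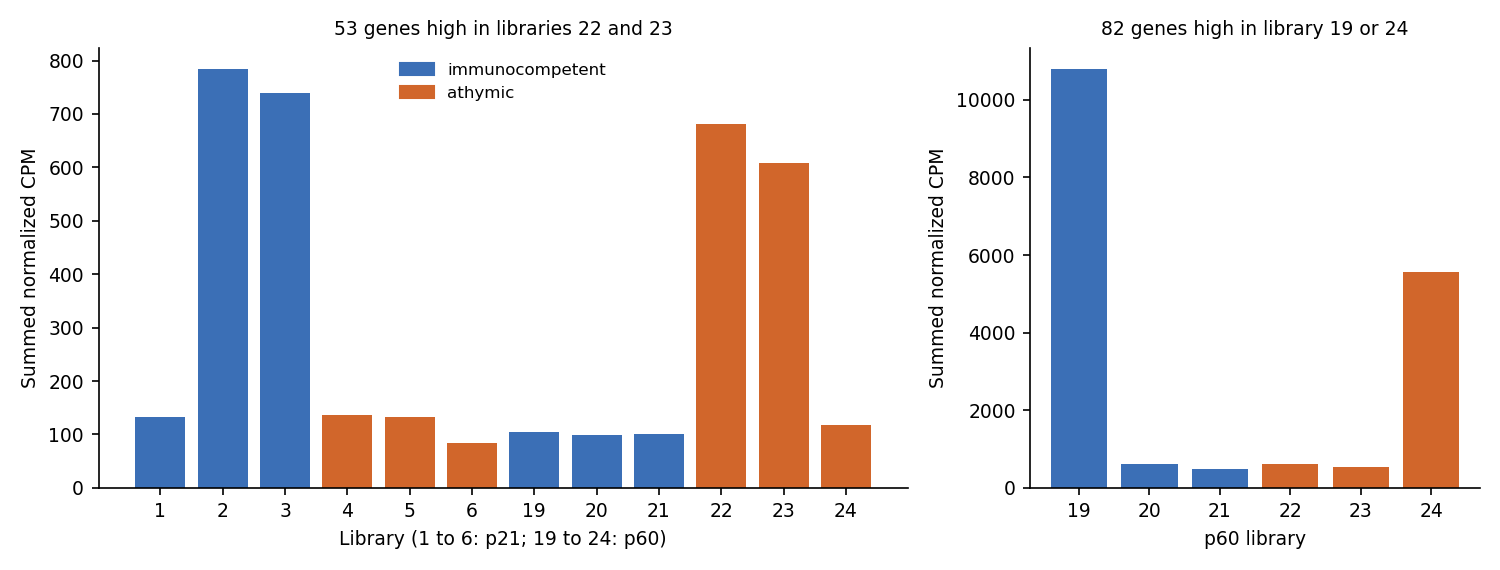
Left, summed normalized CPM of the 53 genes high in libraries 22 and 23, for all 12 libraries, where the bars of libraries 2, 3, 22 and 23 stand at 609 to 785 and all others at 84.3 to 136. Right, the sum of the 82 genes high in library 19 or 24, for the 6 p60 libraries, with 10803 and 5572 in those libraries and at most 619 in the others.

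The line difference at p21, in libraries that are not shared with p60, gave 0 called genes of 14702 (0%) by edgeR, with 1906 at an unadjusted p-value under 0.05 (13%), and 139 by DESeq2. Without library 1 it gave 100 calls, of which 97 were lower in the athymic line. Among the 1370 genes with an unadjusted p-value under 0.05 at p60 that were tested at both ages, 856 (62.5%) had the same direction at p21, against 53.8% of all 14462 genes tested at both. Of the 294 that had an unadjusted p-value under 0.05 at both ages, 168 had the same direction. Genes with unadjusted p-values under 0.05 at p60 were not gathered on a chromosome. Their share ranged from 6.69% on chromosome 2 to 10.7% on chromosome 20 among the 20 autosomes, and it was 8.86% on chromosome 10, to which the rat gene table assigns Foxn1.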

How the data were processed

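Poly(A)-selected RNA of whole rat retina was sequenced as 2x150 paired-end reads, where the labels name the NEBNext Ultra II kit. The authors mapped reads with STAR (version 2.5.2b in the submitters' processing notes) to Rnor_6.0 and deposited raw read counts per Ensembl gene from featureCounts, without normalization. The notes name Subread 1.5.2, and the published methods name another featureCounts version. Strand setting and treatment of reads with several positions are not given in the sources used here, so counts of overlapping or near-identical genes are uncertain. The counts range from 14163643 to 15825858 per p60 library, and gene names were not used.

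Genes on X and Y were removed, and genes were kept by filterByExpr (minimum count 10, minimum total 15). Libraries were scaled with TMM and tested with edgeR 4.0.16 in R 4.3.3 (quasi-likelihood test, Benjamini-Hochberg adjustment at 0.05), in the 6 p60 libraries, the 6 p21 libraries, and all 12 for the interaction of age and line. The 95% intervals came from the log2 fold change, its F statistic and the fit's degrees of freedom. Levels are normalized CPM, scaled over all 12 libraries. The method was also run on simulated counts, and the outcome of that check is not reported here. Alternatives were other scalings and filters, DESeq2 1.42.0, a robust prior, leaving out libraries, keeping X and Y, and fitting all 4 groups. Plots were drawn with matplotlib 3.10.9.

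The comparison, its lists and tests were chosen with earlier results of these data known. The rule for named genes was every called gene (if at most 25), ENSRNOG00000012067 and, without symbols, 2 identifiers in each direction. The only called gene in the lower direction was joined by the next by p-value, which was not called. The level ranges, the age-responsive genes, the genes high in single libraries, and the chromosome and age tables were chosen after the data were seen. No library was left out of the reported values. The lists of immune, glial and retinal cell genes written beforehand were not analysed here, since they need gene names.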

Additional observations from a re-analysis of the deposited data

Results flagged for a closer look

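The interaction of age and line of ENSRNOG00000012067 was -3.83 on the log2 scale (standard error 0.331, adjusted p = 4.76e-04 by edgeR's quasi-likelihood test), because the line difference at p60 (-3.44) departed from that at p21 (0.40). At p60, 3 of 3 athymic libraries lay below every immunocompetent library.

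Counts on the Y chromosome, which were left out of the reported comparisons, were 269.2 CPM in library 22, labelled female, against 251 to 283 CPM in the libraries labelled male and 16.1 to 23.2 CPM in the other athymic libraries at p60. At p21, libraries 4 and 5, labelled female, had 328 and 316 CPM, and library 6 had 8.79.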

How the results depend on the processing

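The calls between the lines at p60 were unstable in number. Against 3 genes, there were 14 without a filter on low counts, 8 with a robust prior, 98 with DESeq2 (where 49 genes had no adjusted p), 183 without libraries 19 and 24, and from 0 to 55 when single libraries were left out. At p21, against 0 genes, there were 321 without a filter, 3 with a robust prior, 139 with DESeq2 and from 0 to 100 when single libraries were left out. For the interaction, against 1 gene, there were 128 without a filter, 0 with at least 10 counts in every library, 145 with DESeq2 and from 1 to 138 over the leave-one-out fits, the highest without library 1. The 3 genes called at p60 were also called with DESeq2, without a filter and without libraries 19 and 24. No named gene changed direction. Of its alternatives, ENSRNOG00000012067 was past the threshold in 11 of 15 (adjusted p from 1.09e-20 to 0.188), ENSRNOG00000019178 in 9 of 16 (4.22e-08 to 0.330), ENSRNOG00000008277 in 10 of 16 (8.74e-10 to 0.330) and ENSRNOG00000014090 in 6 of 16 (8.22e-12 to 0.405). With libraries 19, 20 and 21 against library 22 alone, where the lone library is assumed to vary like the others, the adjusted p of ENSRNOG00000012067 was 0.101. The cause was not tested. The number of genes bounded within 2-fold stayed within 1.5 times its value in all 16 alternatives, in the chromosome 20 window too (110 to 130 genes), and no scaling moved the median of all genes by over 0.1. The median of the genes lower at p60 than at p21 ranged from 0.06 to 0.19, and it was 0.14 without the 53 genes high in libraries 22 and 23, an alternative chosen after seeing the data. No paired analysis was possible because every library has a number of its own in the labels. Intervals were widest under 10 normalized CPM, and the parts of depth and of spread between libraries in this were not tested.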
